A study of Oryza sativa with 44 samples.

Results

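The subject is a segment of rice chromosome 11, taken as the loci from LOC_Os11g11000 to LOC_Os11g13500, in RNA-seq libraries of 15 groups of seedlings. It holds 191 loci, of which 58 reached a mean of at least 1 CPM (the count scaled by the library total, the usual per-million unit) in at least 1 group and are called members here, out of 25078 loci that did so in the whole genome. The interval was chosen by measured values: neighbouring loci in it differed between the wild type NIP and the lines labelled as made from it. Contrasts with NIP are therefore given as a description with no test, and no support is taken from them. In the 7 members that carry this difference, which lie between LOC_Os11g11770 and LOC_Os11g11990, NIP was lower than each of the other 14 groups, including DJ, a second wild type. A neighbouring set of 5 members, between LOC_Os11g12010 and LOC_Os11g12590, was lower in DJ and its 3 lines than in NIP and its 10 lines, and 3 of these had almost no counts in the DJ groups.

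The study compared rice plants altered in genes of the YTH family with their wild types. YTH-domain proteins bind RNA that carries N6-methyladenosine, a methyl mark on adenosines of messenger RNA, and in plants and animals they influence the fate of the RNAs they bind. All groups were young seedlings grown in nutrient solution for 2 weeks, and the labels name no organ. The wild types are NIP and DJ, with 3 libraries each. The labels assign 10 lines to NIP: the knockouts osythdf1b, osythdf1c, osythdf2b, osythdf3b, osythdf3c, osythdf4c and osythdf5c, the RNA interference lines RNAi-OsYTHDC1A and RNAi-OsYTHDF2C, and OE-OsYTHDF1A, which overexpresses the gene it is named for. They assign 3 knockouts to DJ, namely osythdf1a, osythdf2a and osythdf3a. The knockouts were made by CRISPR, and every line has 3 libraries except osythdf2a, which has 2 here. The sources used here name no promoter, and they do not say how many independent transformants stand behind a line. The transcripts of the targeted genes were not analysed here because no table used here pairs locus identifiers with gene names.

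MSU locus identifiers, the names used in the count table, are numbered along each chromosome, so that members with adjoining numbers are neighbours. Wild-type stocks and cultivars of rice can differ in long segments of the genome, and genes in such a segment can differ in sequence, copy number or expression. A locus without counts can be unexpressed, absent, or so changed that its reads are not assigned, and these cannot be told apart in counts against 1 reference genome. In RNA from seedlings, fewer cells of a type and less RNA per cell cannot be told apart either. No gene name or function is given for any member, since none is annotated in the tables used here.

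The smallest library held 13541543 counts and the largest 24099581, and 1 CPM stood for 13.5 and 24.1 counts in them. One library stood apart. In osythdf3a replicate 3, the loci LOC_Os09g00999 and LOC_Os09g01000 took 12.45% of all counts, against 0.3516% and 0.4655% in the other libraries of that line and at most 3.577% in any of the other 43 libraries. Without it, the sets of members low in NIP and low in DJ still numbered 7 and 5.

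Across the segment, 34 of the 58 members had at least 1 CPM in every library of all 15 groups. A further 11 met that level in some groups and had at most 3 counts in every library of other groups, 11 missed that level in some groups without being that low in any, and 2 met it in no group. Together the members took between 0.09986% ± 0.00085 of the counts in NIP (SD, n = 3) and 0.1461% ± 0.00033 in osythdf1a (SD, n = 3). NIP had the lowest share of the 15 groups. That share includes the 7 members for whose low NIP values the interval was chosen, so nothing is read from its rank. Of the remaining 133 loci of the interval, 45 had no count in any of the 44 libraries. Just inside the rule were LOC_Os11g12790, with 1.012 CPM in its highest group, and LOC_Os11g13440, with 1.182 CPM. Just under the rule lay LOC_Os11g12290 at 0.9113 CPM and LOC_Os11g12310 at 0.7935 CPM.

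**Figure D1:**
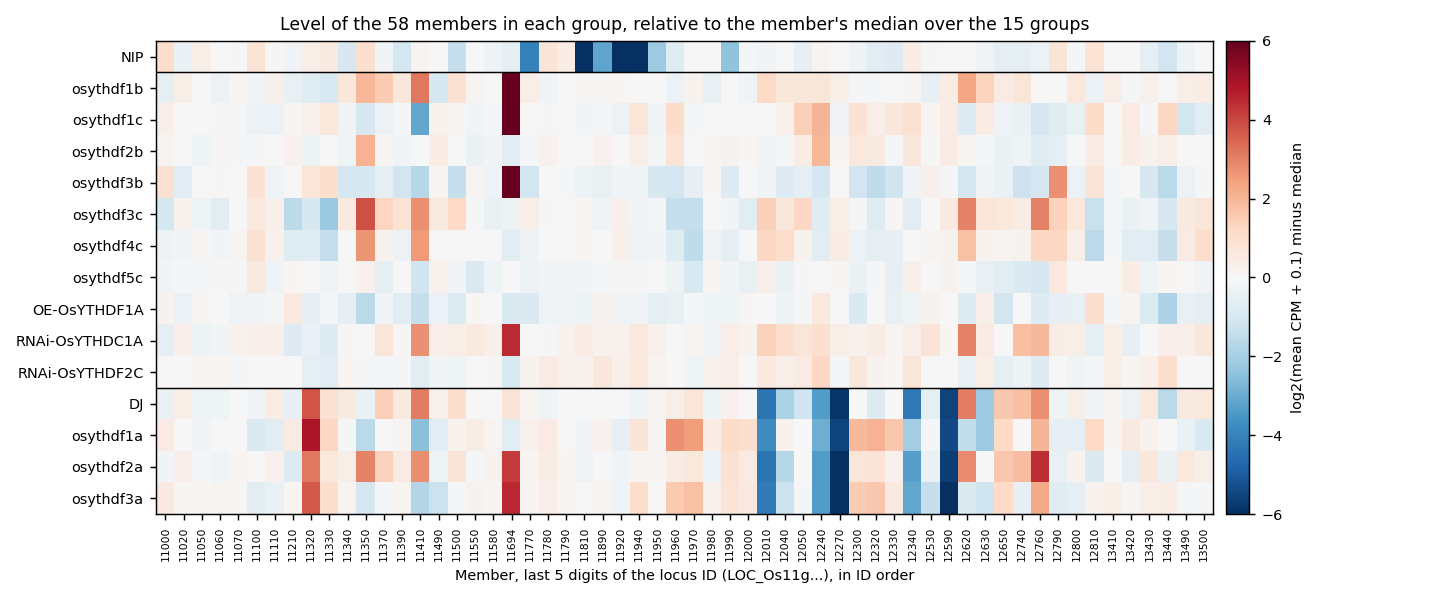
Level of the 58 members (columns, in order of locus number) in the 15 groups (rows: NIP, its 10 lines, DJ, its 3 lines), as log2(mean CPM + 0.1) minus the member's median over the groups; red is higher and blue lower, with values beyond the colour scale drawn at its end. The dark blue columns in the NIP row between LOC_Os11g11770 and LOC_Os11g11990 and in the 4 DJ rows between LOC_Os11g12010 and LOC_Os11g12590 are the 7 NIP-low and the 5 DJ-low members.

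The 6 members with the most counts include 4 that did not set NIP apart. LOC_Os11g11070 was between 71.5 and 94.6 CPM in all 15 group means, NIP included at 77.2 CPM. LOC_Os11g11390, also high per length with a mean of 271 FPKM (counts scaled by the library total and the length of the locus) over the groups other than NIP, ran from 119 CPM in osythdf3b to 468 CPM in osythdf3c, with 127 CPM in NIP and 401 CPM in DJ. LOC_Os11g11100 was at 97.3 CPM in NIP, within the range of 30.4 to 104 CPM over the others. LOC_Os11g13420 was at 58.5 CPM in NIP, between the 37.6 CPM of osythdf4c and the 84.9 CPM of osythdf1a. In each of these 4 the NIP mean lay within the range of the other groups.

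The other 2, LOC_Os11g11050 and LOC_Os11g11000, were highest in NIP, by less than 2-fold. LOC_Os11g11050 stood at 69.1 CPM in NIP against 43.8 to 59.2 CPM in the other groups. LOC_Os11g11000, the first member by number, stood at 110.6 CPM in NIP and 102.5 CPM in osythdf3b, against a median of 51.4 CPM over the 14 groups other than NIP. The locus before it, LOC_Os11g10990, showed the same order, with 15.8 CPM in NIP, 14.1 CPM in osythdf3b and a median of 3.31 CPM. The last member, LOC_Os11g13500, had 2.69 CPM in NIP within a range of 1.36 to 5.61 CPM, and the next expressed locus, LOC_Os11g13570, had 9.67 CPM within a range of 5.09 to 11.2 CPM. The ends of the interval were thus no borders of a NIP-low state.

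A member was counted as NIP-low where the NIP mean was at least 2-fold below the lowest of the other 14 group means, on log2(CPM + 0.1). By this measure 7 of the 58 members were NIP-low, beside 0.335% of all 25078 expressed loci. None was at least 2-fold above the highest other group, beside 0.435% of all loci. Since the interval was chosen on these contrasts, the excess over the background is how it was found and nothing is read from it. All 7 lay between LOC_Os11g11770 and LOC_Os11g11990, and 5 of them, LOC_Os11g11810, LOC_Os11g11890, LOC_Os11g11920, LOC_Os11g11940 and LOC_Os11g11950, were consecutive members.

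LOC_Os11g11770, the first of the NIP-low members, had 0.210, 0.603 and 0.396 CPM in the 3 NIP libraries. In osythdf3b it had 3.19, 4.24 and 3.65 CPM, and in DJ 8.05, 9.92 and 10.4 CPM. Over the 41 libraries other than NIP the lowest value was 3.19, the median 8.73 and the highest 12.7 CPM. The NIP libraries lay under all of the others, the line nearest to them was osythdf3b, and the NIP mean was 9.20-fold below that line and 21.7-fold below the median of the 14 group means.

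LOC_Os11g11810, LOC_Os11g11920 and LOC_Os11g11940 were almost without counts in NIP. LOC_Os11g11810 had 0.168, 0 and 0.0440 CPM in the NIP libraries, 5 counts in all, against 12.4 to 25.8 CPM with a median of 17.4 CPM in the 41 others. LOC_Os11g11920 had 0.0840, 0.0862 and 0.0880 CPM, 6 counts in all, against 11.8 to 26.4 CPM with a median of 19.6 CPM. LOC_Os11g11940 had 0, 0.0431 and 0.0440 CPM, 2 counts in all, against 10.4 to 32.0 CPM with a median of 13.8 CPM. No library outside NIP came near these values, and the groups did not overlap. Against the median of the other groups the NIP mean of LOC_Os11g11810 was 245-fold lower, with a 95% interval from 105-fold to 755-fold. Of its 5 counts 4 were in 1 NIP library, without which the NIP mean was 0.022 CPM, from 1 count. The NIP mean of LOC_Os11g11920 was 227-fold lower (104-fold to 618-fold). For LOC_Os11g11940 the ratio was 495-fold (137-fold to 4089-fold), and it was between 326-fold and 659-fold when 1 NIP library was left out. The intervals are from exact Poisson limits of the NIP counts and cover counting error only.

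LOC_Os11g11890, LOC_Os11g11950 and LOC_Os11g11990 were reduced in NIP but clearly counted there. LOC_Os11g11890 had 2.48, 2.11 and 2.64 CPM in NIP and 15.6 to 37.0 CPM in the others, 9.43-fold below the median of the groups. LOC_Os11g11950 had 1.76, 2.71 and 2.07 CPM in NIP and 4.74 to 12.9 CPM in the others, 4.73-fold below the median. LOC_Os11g11990 had 3.19, 3.66 and 3.35 CPM in NIP and 9.96 to 40.1 CPM in the others, 5.87-fold below the median. In these 3 members, too, the libraries of NIP and of the other groups did not overlap, although for LOC_Os11g11950 the gap to the nearest group mean, 5.18 CPM in osythdf3b, was 2.38-fold. Per length, the 7 members had means of 2.69 to 10.9 FPKM over the other groups and 0.00827 to 1.11 FPKM in NIP.

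**Figure D2:**
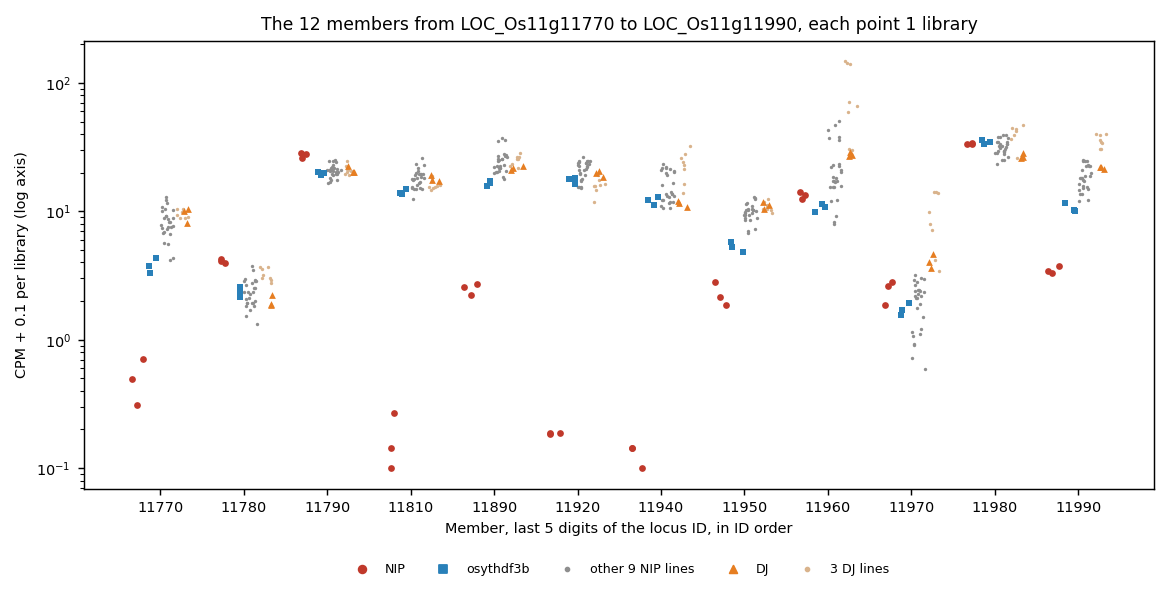
CPM + 0.1 of each library (log axis) for the 12 members from LOC_Os11g11770 to LOC_Os11g11990, with NIP in red, osythdf3b in blue, the other 9 NIP lines in grey, DJ in orange and the DJ lines in tan. In 7 members the 3 NIP points lie under all 41 others, and in the 5 members LOC_Os11g11780, LOC_Os11g11790, LOC_Os11g11960, LOC_Os11g11970 and LOC_Os11g11980 they do not.

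The low state was not continuous. Between the first and the last of the 7 lay 5 members that were not NIP-low, whose NIP mean differed from the median of the other groups by −0.72 to 0.83 on the log2(CPM + 0.1) scale. LOC_Os11g11780 had 3.99 CPM in NIP, above the 3.27 CPM of the highest other group, and LOC_Os11g11790 had 27.3 CPM, above 24.0 CPM. LOC_Os11g11980, near the far end of the stretch, had 33.5 CPM in NIP, 34.7 CPM in osythdf3b and 26.8 CPM in DJ. LOC_Os11g11960 was at 13.2 CPM in NIP, with osythdf3c at 8.38 CPM under it and osythdf1a at 144 CPM above it. The stretch also held 10 loci under the 1 CPM rule. The transcript models of the 7 low members were 2178 to 4419 bases long, and those of the 5 others 216 to 3710 bases.

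Around the interval, NIP-low loci were found on the side of the lower numbers. Of 92 expressed loci from LOC_Os11g08500 to LOC_Os11g10990, 5 were NIP-low. LOC_Os11g09979 had 0.345 CPM in NIP against 75.6 to 111 CPM in the other group means, and LOC_Os11g09830 had 0.516 CPM against 30.2 to 60.2 CPM. In the same flank LOC_Os11g09590 was NIP-high, at 71.4 CPM against at most 0.182 CPM in any other group. Of 68 expressed loci from LOC_Os11g13510 to LOC_Os11g16000, none was NIP-low and none NIP-high. Chromosome 11 as a whole had 15 NIP-low loci of 1495 expressed ones, the 7 members and these 5 among them.

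The 10 NIP lines did not share the state of NIP in any of the 7 members, and how far the rest of the segment departed from NIP varied between lines. In osythdf3b, 13 of 58 members were at least 2-fold from NIP on log2(CPM + 0.1), which were the 7 and 6 more, beside 8.85% of all expressed loci, the lowest share of any group. The counts were 11 members in OE-OsYTHDF1A beside 21.7% of loci, 12 in osythdf5c beside 19.1%, 14 in osythdf2b beside 20.2% and 14 in RNAi-OsYTHDF2C beside 24.6%. They were 20 in osythdf1c beside 24.0%, 20 in osythdf4c beside 21.5%, 23 in RNAi-OsYTHDC1A beside 29.9%, 26 in osythdf1b beside 34.2% and 26 in osythdf3c beside 39.0%. In the DJ groups they were 31 in DJ beside 34.5%, 30 in osythdf1a beside 32.8%, 33 in osythdf2a beside 36.4% and 33 in osythdf3a beside 31.7%. The 7 NIP-low members are part of each count by the way they were selected, and nothing is read from these shares, which rest on the contrast with NIP. Outside the 7, the count in the NIP lines ran from 4 of 51 members in OE-OsYTHDF1A to 19 of 51 in osythdf1b and in osythdf3c.

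In 31 members, NIP and DJ were at least 2-fold apart. In the 7 NIP-low members all 13 lines were nearer to DJ than to NIP, which follows largely from how the 7 were selected. In the other 24 members the NIP lines were divided: osythdf3b was nearer to DJ in 3 of them, OE-OsYTHDF1A in 4, RNAi-OsYTHDC1A in 13 and osythdf1b in 12. Of the DJ lines, osythdf2a was nearer to DJ in 21, osythdf3a in 18 and osythdf1a in 16. Over all 8643 loci at which the wild types were 2-fold apart, 8.492% were nearer to DJ in osythdf3b and 84.38% in osythdf1b. The share was 28.58% in OE-OsYTHDF1A, 79.87% in RNAi-OsYTHDC1A, 90.27% in osythdf2a, 56.09% in osythdf3a and 49.68% in osythdf1a. Thus osythdf3b had the smallest part nearer to DJ, both in the 24 members and over all 8643 loci. These counts rest on the contrast with NIP, and nothing is read from them.

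Comparisons that do not involve NIP were tested with edgeR's quasi-likelihood test, fitted over all genes with Benjamini-Hochberg adjustment, and a gene was called at an adjusted p under 0.05. In each of them a large part of the genome was called, so a count of called members is to be read against that share. Each NIP line was first set against the average of the remaining 9, in comparisons that share their libraries. Of 57 members tested, 45 were called in osythdf3c beside 77.3% of all genes, 44 in osythdf3b beside 73.0%, 40 in osythdf1c beside 67.5%, 40 in osythdf4c beside 71.4% and 38 in RNAi-OsYTHDF2C beside 58.8%. There were 37 in osythdf1b beside 71.4%, 35 in osythdf2b beside 55.6%, 32 in OE-OsYTHDF1A beside 65.7%, 32 in RNAi-OsYTHDC1A beside 69.2% and 21 in osythdf5c beside 57.4%. Read against these shares, the members' counts lay on both sides of the background, and the count furthest under it was that of osythdf5c.

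Among the 10 NIP lines the 7 members that were low in NIP differed by less than 1 log2 unit from the other lines under TMM scaling with all libraries. In osythdf3b the lowest difference reached −1.02 under TMM scaling without its replicate 2. It was −1.12 there with library totals. In osythdf3b, 6 of the 7 were lower than in the other 9 lines, where 27 of 57 members and 36.4% of all genes were lower. LOC_Os11g11770 was lower by −0.92 (log2, SE 0.12, adjusted p = 4.1e-10 in edgeR's quasi-likelihood test), with 3.69 ± 0.52 CPM in osythdf3b. LOC_Os11g11950 differed by −0.70 (SE 0.09, adjusted p = 9.2e-11 in the same edgeR test), LOC_Os11g11990 by −0.58 (SE 0.07, adjusted p = 6.4e-11) and LOC_Os11g11890 by −0.34 (SE 0.05, adjusted p = 3.4e-08). LOC_Os11g11920 did not pass, at −0.06 (adjusted p = 0.28 in edgeR). Between 4 and 7 of the 7 were lower across the settings tried, and none was higher. With library totals as the scale, the median over all genes in this comparison moved from −0.03 to −0.23, and 33 members were lower and 13 higher in place of 27 and 17.

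In RNAi-OsYTHDF2C all 7 were higher than in the other 9 NIP lines, by 0.23 to 0.71, where 27 of 57 members and 30.7% of all genes were higher. This held under each setting tried. LOC_Os11g11890 had 36.9, 34.9 and 36.1 CPM in the 3 libraries of this line, against a mean of 22.3 CPM in the other 9 lines (log2 fold change 0.71, SE 0.04, adjusted p = 1.5e-21 in edgeR's quasi-likelihood test). The highest library of LOC_Os11g11890 in any other group, in osythdf1a, was at 28.3 CPM. The other 8 lines were mixed, with between 1 and 4 of the 7 called higher and between 0 and 3 called lower. The 7 share a segment, and they are not independent of one another.

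**Figure D3:**
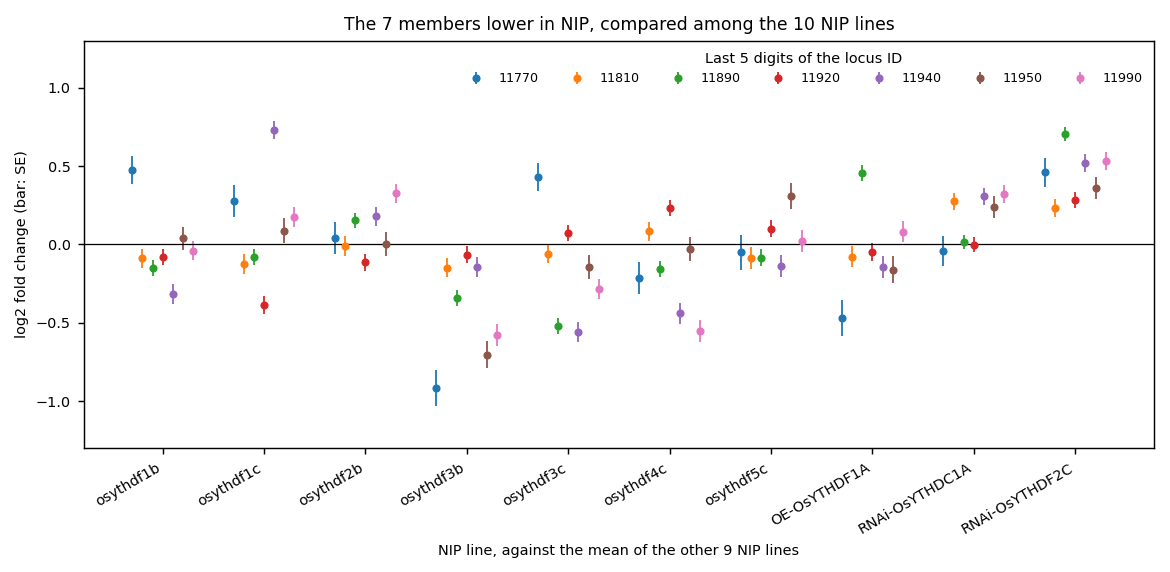
Log2 fold change (bars: standard error) of the 7 NIP-low members in each NIP line against the average of the remaining 9, with NIP itself left out; colours are members. All 7 points lie above 0 in RNAi-OsYTHDF2C and all 7 below 0 in osythdf3b, from −0.92 to −0.06, of which 6 passed the test.

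The second pattern separated the libraries by wild type. In 5 of the 58 members, all 4 DJ groups were at least 2-fold below all 11 groups labelled NIP (DJ-low), beside 0.79% of all expressed loci and 4.48% of the 1495 on chromosome 11. In 1 member, LOC_Os11g11320, the 4 DJ groups were at least 2-fold above all 11, beside 0.443% of loci and 1.87% of those on chromosome 11. The DJ-labelled libraries also lay above all NIP-labelled ones in LOC_Os11g12650 (14.8 to 26.4 against 3.42 to 13.5 CPM) and LOC_Os11g11970 (3.33 to 14.1 against 0.497 to 3.07 CPM). In both, the nearest group means were less than 2-fold apart. The 5 DJ-low members were LOC_Os11g12010, LOC_Os11g12240, LOC_Os11g12270, LOC_Os11g12340 and LOC_Os11g12590, and none of the 92 and 68 loci of the flanks was DJ-low. The 5 were picked out by these values, so they are described first without a test. Their stretch began after LOC_Os11g12000, the member that follows the NIP-low stretch, and it was sparse, with 47 of its 58 loci under the 1 CPM rule, 18 of them between LOC_Os11g12050 and LOC_Os11g12240.

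LOC_Os11g12010 had no count in the 3 DJ libraries or in the 2 of osythdf2a, 3 counts in osythdf1a and 1 in osythdf3a. The 33 libraries labelled NIP had 1.26 to 6.48 CPM with a median of 2.58 CPM, and NIP itself had 1.89, 2.11 and 1.36 CPM. LOC_Os11g12240 had no count in DJ, osythdf2a and osythdf3a and 2 counts in osythdf1a, against 0.284 to 4.65 CPM in the 33 libraries. Against 3 counts over the group, the mean of the 10 NIP lines was at least 59.7-fold higher than DJ in LOC_Os11g12010 and at least 31.9-fold higher in LOC_Os11g12240. The libraries did not overlap in either member.

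LOC_Os11g12270 had 0, 0.110 and 0.108 CPM in DJ, and at most 0.169 CPM in any of the 11 DJ-labelled libraries. The 33 NIP-labelled libraries had 8.40 to 14.2 CPM, a mean 145-fold above DJ for the 10 lines. LOC_Os11g12590 had 0.305, 0.603 and 0.484 CPM in DJ and 23.4 to 39.8 CPM in the NIP-labelled libraries, 67.2-fold higher in the mean of the lines. Here too no libraries overlapped, and the 3 DJ lines stood at 0.272 to 0.516 CPM, beside DJ at 0.464 CPM.

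LOC_Os11g12340 was low in DJ but not evenly so in its lines. It had 0.427, 0.548 and 0.323 CPM in DJ, 2.75, 2.40 and 1.97 CPM in osythdf1a, 0.822 and 1.14 CPM in osythdf2a and 1.31, 1.46 and 0.631 CPM in osythdf3a. The NIP-labelled libraries had 5.71 to 21.0 CPM. Within the DJ groups, osythdf1a was higher than DJ by 2.69 (log2, SE 0.32, adjusted p = 7e-11 in edgeR's quasi-likelihood test).

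The 1 member in the opposite state, LOC_Os11g11320, had 3.54, 2.91 and 1.29 CPM in DJ, 4.78 to 7.33 CPM in osythdf1a, 1.52 and 1.76 CPM in osythdf2a and 2.08 to 2.58 CPM in osythdf3a. The highest of the 33 NIP-labelled libraries had 0.252 CPM. LOC_Os11g11320 thus passed the 1 CPM rule only through the DJ groups, where it was high, so nothing is read from its state. It lies apart from the DJ-low stretch, toward the start of the segment.

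**Figure D4:**
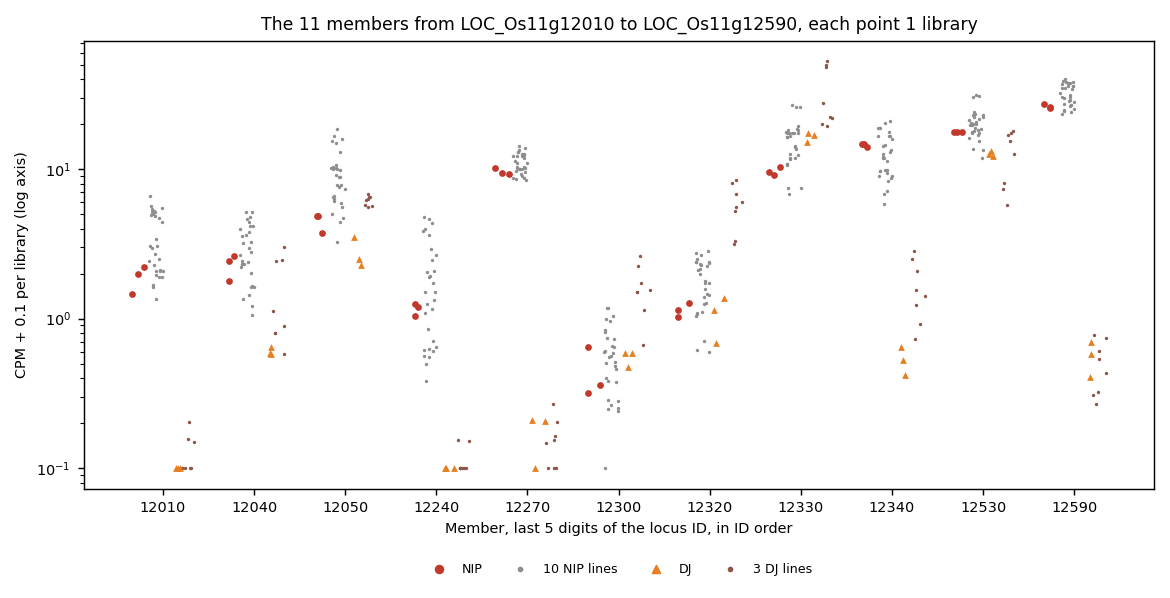
CPM + 0.1 of each library (log axis) for the 11 members from LOC_Os11g12010 to LOC_Os11g12590, with NIP in red, its 10 lines in grey, DJ in orange and the 3 DJ lines in brown. The DJ-labelled libraries lie under all NIP-labelled ones in LOC_Os11g12010, LOC_Os11g12240, LOC_Os11g12270, LOC_Os11g12340 and LOC_Os11g12590.

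The 6 members interspersed with the DJ-low ones had counts in every group. The mean of the 4 DJ groups differed from that of the 11 NIP-labelled groups in either direction, by −1.40 to 1.14 on the log2(CPM + 0.1) scale. LOC_Os11g12330 had 16.4 CPM in DJ against 9.54 CPM in NIP, and LOC_Os11g12530 had 12.7 CPM in DJ against 17.7 CPM in NIP. LOC_Os11g12040 and LOC_Os11g12050 had their lowest group mean in DJ. They stood at 0.509 and 2.67 CPM there, against 2.17 and 4.41 CPM in NIP. As in the NIP-low stretch, the low members were not all consecutive.

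Over all members, DJ was compared with the mean of the 10 NIP lines, leaving NIP out. Of 58 members, 19 were higher in DJ, beside 37.3% of all genes, and 28 were lower, beside 32.4%. With library totals the split was 24 higher and 19 lower, as the median over all genes then moved from 0.02 to 0.21. At 2-fold or more, 9 were higher and 9 lower, for which no share of all genes is given, so nothing is read from that split. The 5 DJ-low members, selected on these same values, are among the lower ones, and no p is given for them. LOC_Os11g12620 was higher in DJ, with 17.6 CPM against 5.92 CPM (log2 fold change 2.24, SE 0.08, adjusted p = 5.5e-41 in edgeR), and LOC_Os11g12650 was higher with 24.6 CPM against 7.39 CPM (1.65, SE 0.07, adjusted p = 1.6e-35 in edgeR).

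Of the 7 NIP-low members, DJ was higher than the 10 lines in 1 and lower in 4, and none of these differences exceeded 0.58 in size. LOC_Os11g11940 had the largest, at −0.58 (log2, SE 0.07, adjusted p = 8.8e-12 in edgeR's quasi-likelihood test), with 10.6, 11.9 and 11.5 CPM in DJ. In the 7 members, then, DJ was within 1 log2 unit of the mean of the 10 NIP lines, while NIP stood below both. Single lines could be further from DJ, as in LOC_Os11g11770, with 3.69 CPM in osythdf3b and 4.59 CPM in OE-OsYTHDF1A against 9.46 CPM in DJ.

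Runs of neighbours of at least 2-fold difference were few in this comparison. From LOC_Os11g12010 to LOC_Os11g12270, 5 consecutive members, 3 of them DJ-low by selection, were lower in DJ, by −8.86 to −1.83, of which the lowest value belongs to a member with no DJ count and depends on the fit's prior count. From LOC_Os11g12650 to LOC_Os11g12760, 3 consecutive members were higher, by 1.61 to 4.43. LOC_Os11g12740, in the middle of these 3, had 62.4, 64.7 and 64.5 CPM in DJ and 11.8, 11.9 and 12.2 CPM in NIP.

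The 3 DJ lines were each compared with DJ, in comparisons that share the 3 DJ libraries. In osythdf1a, 29 of 53 tested members were higher, beside 37.5% of all genes, and 18 were lower, beside 39.5%. In osythdf3a, 29 were higher, beside 35.0%, and 13 lower, beside 37.2%. In osythdf2a, 11 were higher, beside 20.9%, and 13 lower, beside 30.9%. With library totals the splits were 24 higher and 20 lower in osythdf1a, 22 and 17 in osythdf3a, and 14 and 4 in osythdf2a, and the median over all genes moved by more than 0.1 in osythdf1a, to −0.27, and in osythdf3a, to −0.27. At 2-fold or more, osythdf1a had 19 members higher and 7 lower, osythdf3a 10 and 5, and osythdf2a 6 and 0. No share of all genes at this stricter limit is given, so nothing is read from these splits.

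In osythdf1a, the higher members included a run of 5 neighbours that begins inside the NIP-low stretch. From LOC_Os11g11960 to LOC_Os11g12000 each was higher than in DJ, by 1.00 to 2.63 on the log2 scale. With library totals all 5 were still called higher, by 0.75 to 2.38, but 3 of them were at 2-fold or more and no 3 neighbours in a row. LOC_Os11g11960 had 143.9, 147.7 and 140.7 CPM in osythdf1a against 29.0, 26.6 and 27.5 CPM in DJ (2.63, SE 0.04, adjusted p = 9.4e-47 in edgeR's quasi-likelihood test). In osythdf3a it had 66.2, 70.8 and 58.7 CPM, and in osythdf2a 29.7 and 30.2 CPM. The osythdf1a libraries lay above all others of the DJ groups, those of osythdf3a between, and those of osythdf2a next to DJ.

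LOC_Os11g11970, next to it, followed the same order, with 13.97 CPM in osythdf1a, 8.27 CPM in osythdf3a, 3.69 CPM in osythdf2a and 3.98 CPM in DJ. A second run in osythdf1a went from LOC_Os11g12300 to LOC_Os11g12340, where 4 neighbours were higher by 1.87 to 3.24. LOC_Os11g12320 had 7.93, 6.72 and 8.39 CPM in osythdf1a against 1.28, 1.04 and 0.592 CPM in DJ (3.24, SE 0.19, adjusted p = 1.3e-21 in edgeR's quasi-likelihood test). In osythdf3a it had 5.50, 5.91 and 5.12 CPM (2.77, SE 0.20, adjusted p = 1.1e-17 in edgeR). Neither line overlapped with DJ in LOC_Os11g12320.

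In osythdf3a, LOC_Os11g11940 was also among the members that differed most, with 28.04, 31.95 and 24.2 CPM against 10.6, 11.9 and 11.5 CPM in DJ (1.56, SE 0.08, adjusted p = 3.2e-23 in edgeR's quasi-likelihood test). This is one of the 7 NIP-low members. Of these 7, osythdf1a had 4 higher and 1 lower than DJ, osythdf3a 4 and 0, and osythdf2a 2 and 2. In osythdf2a the members named by size and level were LOC_Os11g12050, with 6.14 and 6.18 CPM against 2.20, 2.41 and 3.39 CPM in DJ (1.10, SE 0.17, adjusted p = 4.9e-07 in edgeR), and LOC_Os11g11990, with 35.0 CPM against 21.7 CPM (0.59, SE 0.07, adjusted p = 2.4e-10 in edgeR). The lower ones were LOC_Os11g12810, at 8.995 CPM against 14.3 CPM (−0.76, SE 0.10, adjusted p = 5.3e-09 in edgeR), and LOC_Os11g11490, at 7.99 CPM against 11.2 CPM. The difference of LOC_Os11g11490 (−0.59, SE 0.13, adjusted p = 2e-04 in edgeR) was not called by limma on log2(FPKM + 0.1), at −0.47 with an adjusted p of 0.08.

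Several members outside both low stretches took distinct levels in subsets of groups that crossed the wild types. LOC_Os11g11410 had 19.5, 17.3 and 17.9 CPM in DJ, and 14.9 and 15.5 CPM in osythdf2a. It had 0.108, 0.313 and 0.450 CPM in osythdf1a and 0.584, 0.450 and 0.631 CPM in osythdf3a, and against DJ the differences were −5.70 (log2, SE 0.20, adjusted p = 1.2e-31) and −4.78 (SE 0.18, adjusted p = 4.2e-30) in edgeR's quasi-likelihood test. Among the NIP lines it stood at 19.2 ± 1.3 CPM in osythdf1b, 14.7 ± 1.3 in osythdf3c, 12.5 ± 2.2 in osythdf4c and 14.7 ± 0.98 in RNAi-OsYTHDC1A (SD, n = 3 each). In the other 6 NIP lines it was at 0.150 to 2.08 CPM, with osythdf1c lowest and osythdf2b highest, and NIP had 2.06, 1.98 and 3.04 CPM. The groups were sorted into high and low by these same values, so nothing is read from the lack of overlap between the sets. Each set held groups of both wild types.

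Among the NIP lines, LOC_Os11g11410 was the member named for osythdf1b on the higher side (3.15 against the other 9 lines, SE 0.10, adjusted p = 4.7e-36) and for osythdf1c on the lower side (−4.32, SE 0.32, adjusted p = 4.4e-18 in edgeR's quasi-likelihood test). LOC_Os11g12620 was high in DJ at 17.6 CPM, osythdf2a at 15.2, osythdf3c at 16.4, RNAi-OsYTHDC1A at 16.5, osythdf1b at 10.5 and osythdf4c at 7.06 CPM, the same 6 groups as for LOC_Os11g11410. It was at 0.664 CPM in osythdf1a and 1.07 CPM in osythdf3a, lower than DJ by −4.46 (log2, SE 0.17, adjusted p = 3.3e-30) and −3.81 (SE 0.16, adjusted p = 2.1e-28) in edgeR. The remaining groups were at 0.932 to 2.23 CPM, NIP among them at 2.02 CPM.

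LOC_Os11g12740 was high in 3 groups. It had 63.9 ± 1.3 CPM in DJ (SD, n = 3), 66.2 and 67.0 CPM in osythdf2a, and 63.8 ± 3.5 CPM in RNAi-OsYTHDC1A (SD, n = 3). The other 12 groups were at 7.71 to 30.6 CPM, with osythdf3b lowest. RNAi-OsYTHDC1A was higher than the other 9 NIP lines by 1.77 (log2, SE 0.04, adjusted p = 7.9e-42 in edgeR's quasi-likelihood test), and osythdf3b was lower than the other 9 by −1.18 (SE 0.07, adjusted p = 6.7e-23 in edgeR). The difference of LOC_Os11g12740 between osythdf1a and DJ was −1.52, and that between osythdf3a and DJ was −2.06.

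LOC_Os11g11694, the neighbour that precedes the NIP-low stretch, was counted in a different subset. It had 21.0, 21.8 and 19.1 CPM in osythdf1b, 18.7, 19.7 and 16.5 CPM in osythdf1c and 16.7, 15.6 and 15.9 CPM in osythdf3b. A lower level was seen in RNAi-OsYTHDC1A (4.47, 3.95 and 3.90 CPM), osythdf2a (3.42 and 3.47 CPM) and osythdf3a (4.48, 4.72 and 3.79 CPM). In DJ it had 0.366, 0.165 and 0.162 CPM, and in NIP, osythdf1a and the other 6 NIP lines it had at most 3 counts in each library. Compared with DJ, osythdf3a was higher by 4.47 (log2, SE 0.31) and osythdf2a by 3.79 (SE 0.35). LOC_Os11g11694 passed the 1 CPM rule only through groups where it was high, and it was chosen after its values were seen. No p is therefore given for it, and nothing is read from these differences. The 6 groups above 1 CPM thus included lines of both wild types. Their lowest library was at 3.42 CPM, and DJ was the highest of the other 9 groups. These 6 were picked by the same values, so nothing is read from the gap.

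**Figure D5:**
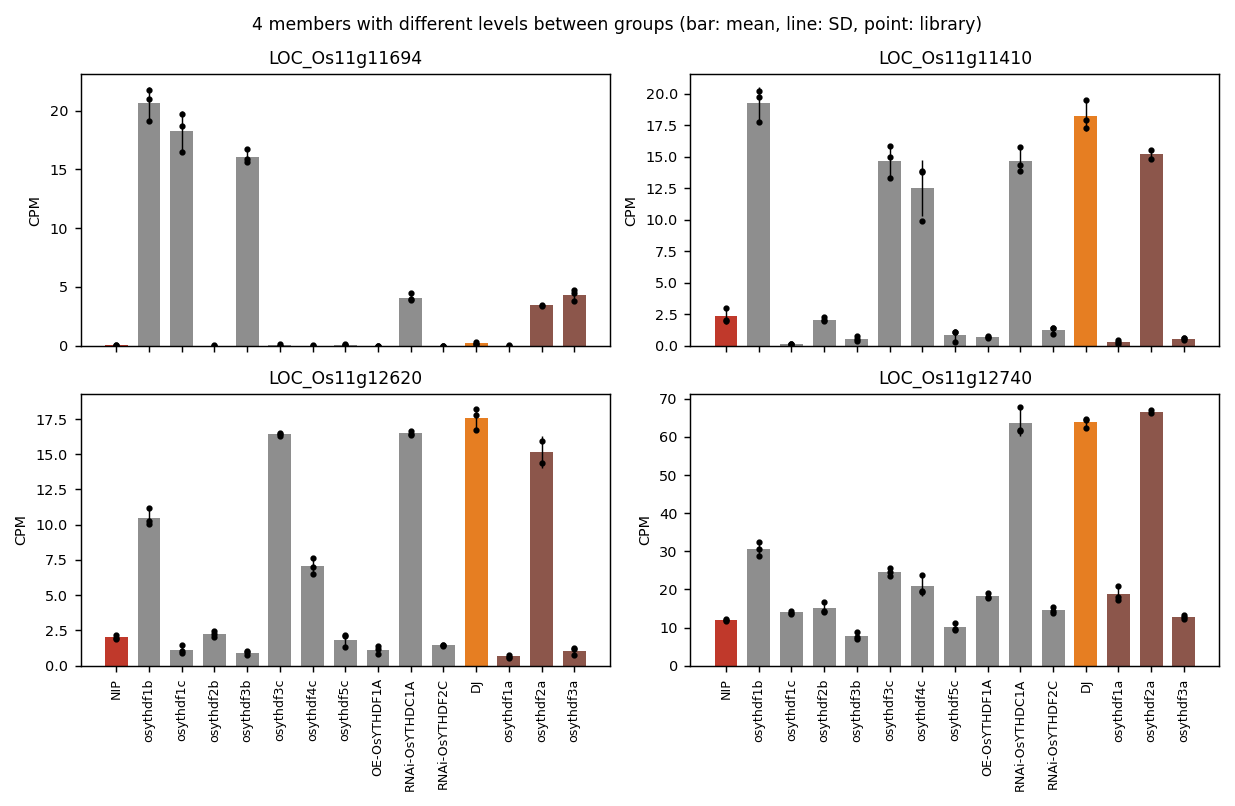
CPM of LOC_Os11g11694, LOC_Os11g11410, LOC_Os11g12620 and LOC_Os11g12740 in the 15 groups; bars are means, lines SD (n = 3, 2 for osythdf2a), points libraries, with NIP red, its lines grey, DJ orange and its lines brown. LOC_Os11g11410 and LOC_Os11g12620 are high in the same 6 groups, LOC_Os11g12740 is highest in 3 of these, and LOC_Os11g11694 is high in osythdf1b, osythdf1c and osythdf3b, of which osythdf1b is also among the 6.

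Other members named by the size of their difference in 1 line were outside these subsets. LOC_Os11g11960 was higher in osythdf1c, at 46.6 CPM against 18.2 CPM in the other 9 NIP lines (log2 fold change 1.57, SE 0.05, adjusted p = 2.5e-36 in edgeR's quasi-likelihood test). LOC_Os11g11330 was higher in osythdf3b, at 10.3 CPM against 3.79 CPM (1.85, SE 0.09), and NIP itself stood at 7.55 CPM. LOC_Os11g11210 was lower in osythdf3c, at 10.0 CPM against 29.3 CPM (−1.68, SE 0.06), and higher in OE-OsYTHDF1A, at 45.5 CPM against 25.4 CPM (1.22, SE 0.04). LOC_Os11g11490 was lower in osythdf1b, at 4.83 CPM against 10.7 CPM (−1.28, SE 0.09). All of these passed the same edgeR test, with adjusted p of at most 8e-20.

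LOC_Os11g11500 was higher in osythdf3c, at 6.03 CPM against 2.54 CPM (1.18, SE 0.11, adjusted p = 1.4e-15 in edgeR's quasi-likelihood test). LOC_Os11g13500 was higher in osythdf4c, at 5.61 CPM against 2.82 CPM (1.03, SE 0.11, adjusted p = 1.5e-12 in edgeR), and LOC_Os11g13420 was lower there, at 37.6 CPM against 63.5 CPM (−0.77, SE 0.04, adjusted p = 6.8e-26 in edgeR). LOC_Os11g11550 was lower in osythdf5c, at 11.9 CPM against 22.8 CPM (−0.81, SE 0.07, adjusted p = 9.8e-17 in edgeR). Of these 4 members, LOC_Os11g13420 and LOC_Os11g13500 lie at the far end of the segment, and none of the 4 is NIP-low or DJ-low.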

How the data were processed

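RNA-seq libraries of rice seedlings were analysed from 2 tables in which the authors deposited, per locus, read counts and FPKM values. The submitters' processing notes name the IRGSP-1.0 genome, HISAT2 and featureCounts. Their versions, the strand setting and the treatment of reads matching several loci were not given in the sources used here, so that overlapping loci or near-identical copies could share or lose reads. The deposited FPKM equalled count over library total and length. A further 40 columns of each table match no sample here and were not used. Library totals were 13541543 to 24099581 counts.

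The members and lists were chosen with earlier results of these data known. CPM was computed on library totals, with a pseudocount of 0.1 CPM for log2 values. Tests used edgeR 4.0.16 (R 4.3.3): TMM scaling, a filter on low counts, and quasi-likelihood fits over the 11 DJ libraries, the 33 NIP libraries or all 44, with Benjamini-Hochberg adjustment over all genes tested; the SE is the size of the log2 fold change over the square root of F. The design text calls the libraries biological replicates. Replicates were checked for duplicated libraries by a chi-square test of their counts, in which every pair differed by more than counting noise (lowest 1.58 per degree of freedom). The fit was tested on simulated data. Named members are those at run ends and of highest level in a run, those of the largest called differences (2 each way, or 1 for a NIP line) at 5 CPM or more without overlap of libraries, the 6 of highest level, the 5 each way most apart in NIP, and those next to a limit; members in the paragraphs on subsets of groups and on the DJ-low stretch were chosen after their values were seen. Alternatives were other scalings, DESeq2 1.42.0, limma 3.58.1 on FPKM in log2 form with pseudocounts of 1 or 0.1, no filter, a 2-fold minimum, a replicate block, other limits for both low states, and leaving out 1 library at a time. The libraries left out were those of the tested line or of DJ, those of NIP for the NIP-low state, and osythdf3a replicate 3 for both low states.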

Additional observations from a re-analysis of the deposited data

How the results depend on the processing

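Of 189 recomputed counts of members, 167 stayed within 1.5 times the reported one and 22 did not. No value changed direction among 393 values recomputed for 37 single-gene results. One lost its call (LOC_Os11g11490 in osythdf2a, above). A further 13 moved by more than the spread between replicates. All are the NIP difference from the median of the other groups in the 7 NIP-low members, which shrank with a pseudocount of 1 CPM (for example to −4.12 in LOC_Os11g11810 and −1.83 in LOC_Os11g11950) or changed with FPKM or TMM library sizes. Requiring 2-fold as well as the adjusted p left 26 members in osythdf1a, 6 in osythdf2a, 15 in osythdf3a and 18 in DJ against the 10 NIP lines. For the NIP lines it left 7 in osythdf1b, 13 in osythdf1c, 3 in osythdf2b, 14 in osythdf3b, 15 in osythdf3c, 11 in osythdf4c, 1 in osythdf5c, 6 in OE-OsYTHDF1A, 5 in RNAi-OsYTHDC1A and 3 in RNAi-OsYTHDF2C. These counts have no share of all genes at the same limit beside them and are given as a check of the limit only. On log2(FPKM + 1) and log2(FPKM + 0.1), limma called 13 and 12 members in osythdf2a, and on both scales 33 in osythdf5c and 49 in OE-OsYTHDF1A. With library totals, RNAi-OsYTHDC1A had 49, where the median over all genes moved from 0.03 to 0.25. No share of all genes under the changed setting is given beside these counts or the called counts below. They are a check of the setting, and nothing is read from them. A 4-fold limit left 3 DJ-low and 5 NIP-low members, and a pseudocount of 1 CPM left 6 NIP-low members; the cause of these shifts was not tested, beyond the stricter limit where there is one. Leaving out 1 library gave 45 to 47 members in osythdf1a, 19 to 24 in osythdf2a, 39 to 43 in osythdf3a and 42 to 46 in DJ. The NIP-low members stayed 7 without any 1 NIP library and without osythdf3a replicate 3. The DJ-low members stayed 5 without osythdf3a replicate 3, the only library left out for that count. Same-numbered libraries did not vary together (correlations −0.05 to 0.11 between DJ and its lines), so the replicate numbers do not pair them, and a replicate block moved counts by at most 1 (for example to osythdf2a 25, osythdf3a 43, DJ 48, osythdf3b 43).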

Other observations

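Some members of low level differed between groups in ways not described above. LOC_Os11g11350 had 3.495, 4.37 and 4.69 CPM in osythdf3c and 2.28 CPM in osythdf2a, and it had no count in OE-OsYTHDF1A and osythdf1a. LOC_Os11g12760 had 4.30 and 4.14 CPM in osythdf2a, and 1.10, 1.32 and 1.35 CPM in DJ, while NIP had 0.0574 CPM. LOC_Os11g12790 passed the 1 CPM rule only through osythdf3b, so nothing is read from its higher level there. It had 1.04, 0.908 and 1.09 CPM in osythdf3b, and at most 0.338 CPM in any other group. Each of these values rests on few counts.

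Of the 15 groups, osythdf1b had the most members counted in every library at 1 CPM or more, 52 of 58, and NIP had the fewest, 43. LOC_Os11g11770, LOC_Os11g11810, LOC_Os11g11920 and LOC_Os11g11940 met this level in every group but NIP. The rank of NIP thus reflects how the interval was chosen, and nothing is read from it. Precision is limited where a member has few counts: over the 3 NIP libraries, a count of 0 allows up to 0.0430 CPM (3 counts), and over the 2 libraries of osythdf2a up to 0.0815 CPM. The counts alone do not tell a missing or changed sequence from an unexpressed one. Sequences and positions of the members were not analysed here.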
